A study of Mus musculus with 4 samples.

Results

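The genes described here are 44 that build and run the DNA replication fork or supply it with nucleotides, taken by name from a list that spans polymerases and primase, the sliding clamp and its loader, the single-strand binding protein RPA, GINS and Cdc45, lagging-strand enzymes, nucleotide enzymes, chromatin assembly and DNA methylation, fork protection and recombination, and cyclin E with its kinase. The list was chosen with earlier results of these data known, so counts and shares over it are a description only. All 44 were among the 23351 rows of the gene table and all 44 averaged 1 FPKM or more (FPKM is a level scaled to transcript length and to library size), as did 11201 rows in all. They were measured by RNA sequencing in primary satellite cells (muscle stem cells) that came from extensor digitorum longus, a hindlimb muscle, of 6 to 8 week old C57BL/6 mice. The groups were Control and ERβ scKO (cKO in the series' design text), with 2 libraries each. The sources used here do not give the Cre driver, the allele, the genotype of the Control mice or how many animals were pooled, and by its title the series concerns estrogen receptor β in the muscle of young females.

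DNA replication starts when the MCM helicase is joined by Cdc45 and the GINS complex, which together unwind the duplex. DNA polymerase alpha with primase lays down primers, replication factor C loads the ring-shaped clamp PCNA, and polymerases delta and epsilon extend the strands while RPA covers exposed single strands. Flap endonuclease and DNA ligase join the lagging-strand pieces, ribonucleotide reductase and thymidylate synthase supply deoxynucleotides, and histone chaperones with the maintenance methylation machinery restore chromatin behind the fork. Many of these genes are known targets of the E2F transcription factors, which cyclin E and CDK2 help to activate, and in muscle they are active in dividing myoblasts and are turned down when the cells leave the cell cycle to differentiate.

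The promoters are shown because E2F control is the best known feature that these genes share. RefSeq promoter windows on GRCm38.p6, from 250 bases before to 50 after each annotated start, were matched by symbol for 36 of the 44 genes (43 windows). The E2F motif was searched on both strands as TTTCCCGC, TTTCGCGC, TTTGCCGC or TTTGGCGC. It was found for 11 of the 36 genes (30.6%), against 5.02% of the tested genes with a window and 2.6% of all genes with a window. In 7 of the 11 a match lay upstream of the start, and the stretches around it follow for all of these but Brca2, 5′ to 3′ on the gene's strand, with the motif or its reverse complement in capitals.
Uhrf1, chr17:56304102-56304161, plus strand: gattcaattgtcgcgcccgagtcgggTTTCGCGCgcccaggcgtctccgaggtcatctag
Dnmt1, chr9:20952809-20952868, minus strand: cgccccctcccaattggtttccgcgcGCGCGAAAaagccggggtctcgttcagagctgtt
Gins3, chr8:95633492-95633551, plus strand: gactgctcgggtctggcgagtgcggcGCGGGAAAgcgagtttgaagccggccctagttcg
Cdk2, chr10:128705158-128705217, minus strand: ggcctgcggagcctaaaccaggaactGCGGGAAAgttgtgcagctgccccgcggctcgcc
Pola1, chrX:93632260-93632319, minus strand: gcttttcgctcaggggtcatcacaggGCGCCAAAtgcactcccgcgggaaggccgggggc
Rfc3, chr5:151651209-151651268, minus strand: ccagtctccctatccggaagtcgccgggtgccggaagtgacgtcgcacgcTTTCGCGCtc

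Other short motifs were nearer to their share among tested genes. A CCAAT box (CCAAT) was found for 20 of the 36 genes (55.6%, against 43.7% of tested genes), the GC box GGGCGG for 27 (75%, against 71.3%), and the letters TTTGAA, the core of the CHR element of cell cycle promoters, for 7 (19.4%, against 13.6%). The full palindromic estrogen response element, searched on both strands, was in no member's window and in 1 of 8372 tested genes with a window. A match is a string of letters and not a measured binding site. The 11 genes with the E2F letters had a median log2 difference of −0.16 between groups, and the 25 without them −0.26. Whether these medians differ was not tested.

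Across the 44 genes the level was mostly lower in ERβ scKO than in Control. The median log2 difference of ERβ scKO from Control, on the log2(FPKM + 1) scale that is used for every log2 value here, was −0.25 over the members and 0.00 over all genes tested, and the median ratio of group means was 0.835 over the members. The mean was lower in ERβ scKO for 42 of the 44, against 50.7% of all tested genes, with Rfc4 and Ccne2 as the exceptions, both of which were below 0 once the trend with GC content was removed. For 28 of the 44 neither ERβ scKO value reached the lower Control value (18.3% of all tested genes), and for 0 of the 44 were both ERβ scKO values above both Control values (18.3% of all tested genes). Compared within replicate number 1 and within number 2, 35 of the 44 were lower in ERβ scKO both times (29% of all tested genes). Differences ran from −0.54 (Pold2) to 0.14 (Ccne2).

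No single member passed the test over all genes. Limma on library values, with Benjamini-Hochberg adjustment over 11201 genes, called 0 of the 44 (0.0357% of all tested genes, 4 genes, were called, and 0.0179% as lower; 3 of them encode small nucleolar RNAs and 1 is the ribosomal RNA precursor), and the lowest adjusted p of a member was 0.837. At limma's unadjusted p under 0.05 there were 9 members, all lower in ERβ scKO (2.2% of all tested genes were lower and 2.43% higher at that p): Lig1, Cdc45, Pold2, Rnaseh2a, Dnmt1, Ccne1, Asf1b, Timeless and Uhrf1, chosen after their values were seen. With a library left out, p-values rest on the spread of the other group, so no count of members at that p is given for such fits. The members' median log2 difference was −0.22 or −0.29 without replicate 1 or replicate 2 of Control. It was −0.27 or −0.18 without replicate 1 or replicate 2 of ERβ scKO. The count of 9 rests on the processing, since it was 6 with upper quartile scaling, 5 without the variance trend and 13 with the GC trend removed. In the authors' deposited table q was under 0.05 for 0 genes (0% of 9426 tested), and p was under 0.05 for 2 members, Lig1 and Pold1 (1.92% of the genes they tested were lower at that p). With 2 libraries per group, and nothing in the sources to say that they came from separate animals, p-values measure the spread between these libraries, which may be technical.

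**Figure D1:**
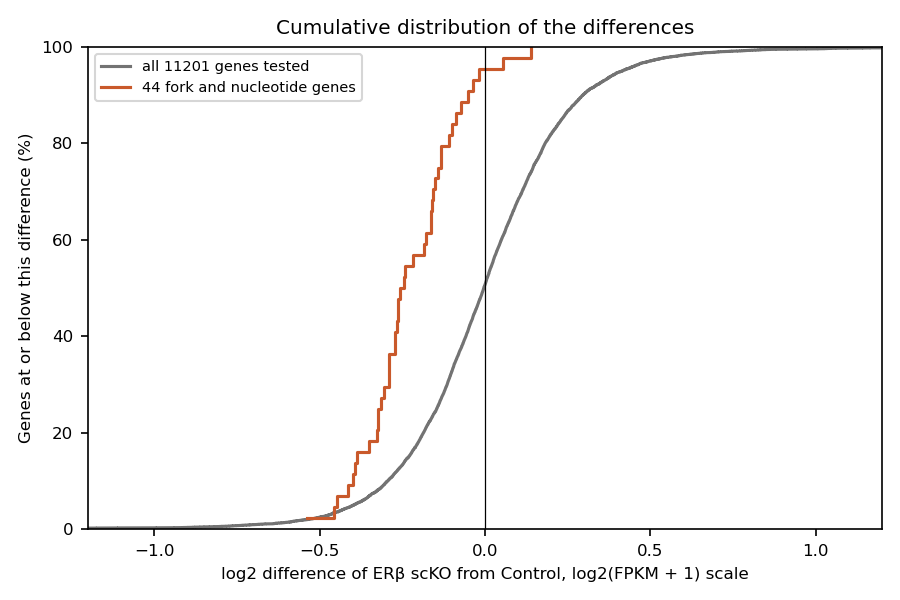
Cumulative share of genes (vertical axis, %) against the log2 difference of ERβ scKO from Control (horizontal axis) for all 11201 genes tested and for the 44 fork and nucleotide genes. The curve of the 44 genes lies to the left of the curve of all genes except at its lowest end, with medians of −0.25 and 0.00.

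The libraries and the precision they give are as follows. Each library had between 11108 and 11191 genes at 1 FPKM or more. The files give no read counts, and the spacing of low FPKM values gave about 2500000 to 3000000 fragments per library when full transcript lengths are used, and 2700000 to 3200000 when 200 bases are taken off each length. From the first estimate the members had about 33 (Pole2) to 1900 (Rrm2) fragments in their lowest library, with a median of about 160, where counting error alone is 7.91% of a value. Esr2, which encodes ERβ, had 0.234 and 0.202 FPKM in Control and is listed at 0 for replicates 1 and 2 of ERβ scKO, where 3 fragments correspond to 0.330 and 0.308 FPKM (0.357 and 0.297 in Control), so it does not check the labels at this depth. Of the markers fixed for satellite cells and myoblasts, 8 of 8 were measured, with a summed level of 1016 to 1151 FPKM in Control and 1046 to 1074 in ERβ scKO. Most of that sum was Des and Myod1, with means over the 4 libraries of 421 and 349 FPKM. Pax7 averaged 10.6 FPKM, and Myog, from the list of differentiating muscle cells, 600. In bulk RNA fewer dividing cells and less RNA per dividing cell cannot be told apart.

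**Figure D2:**
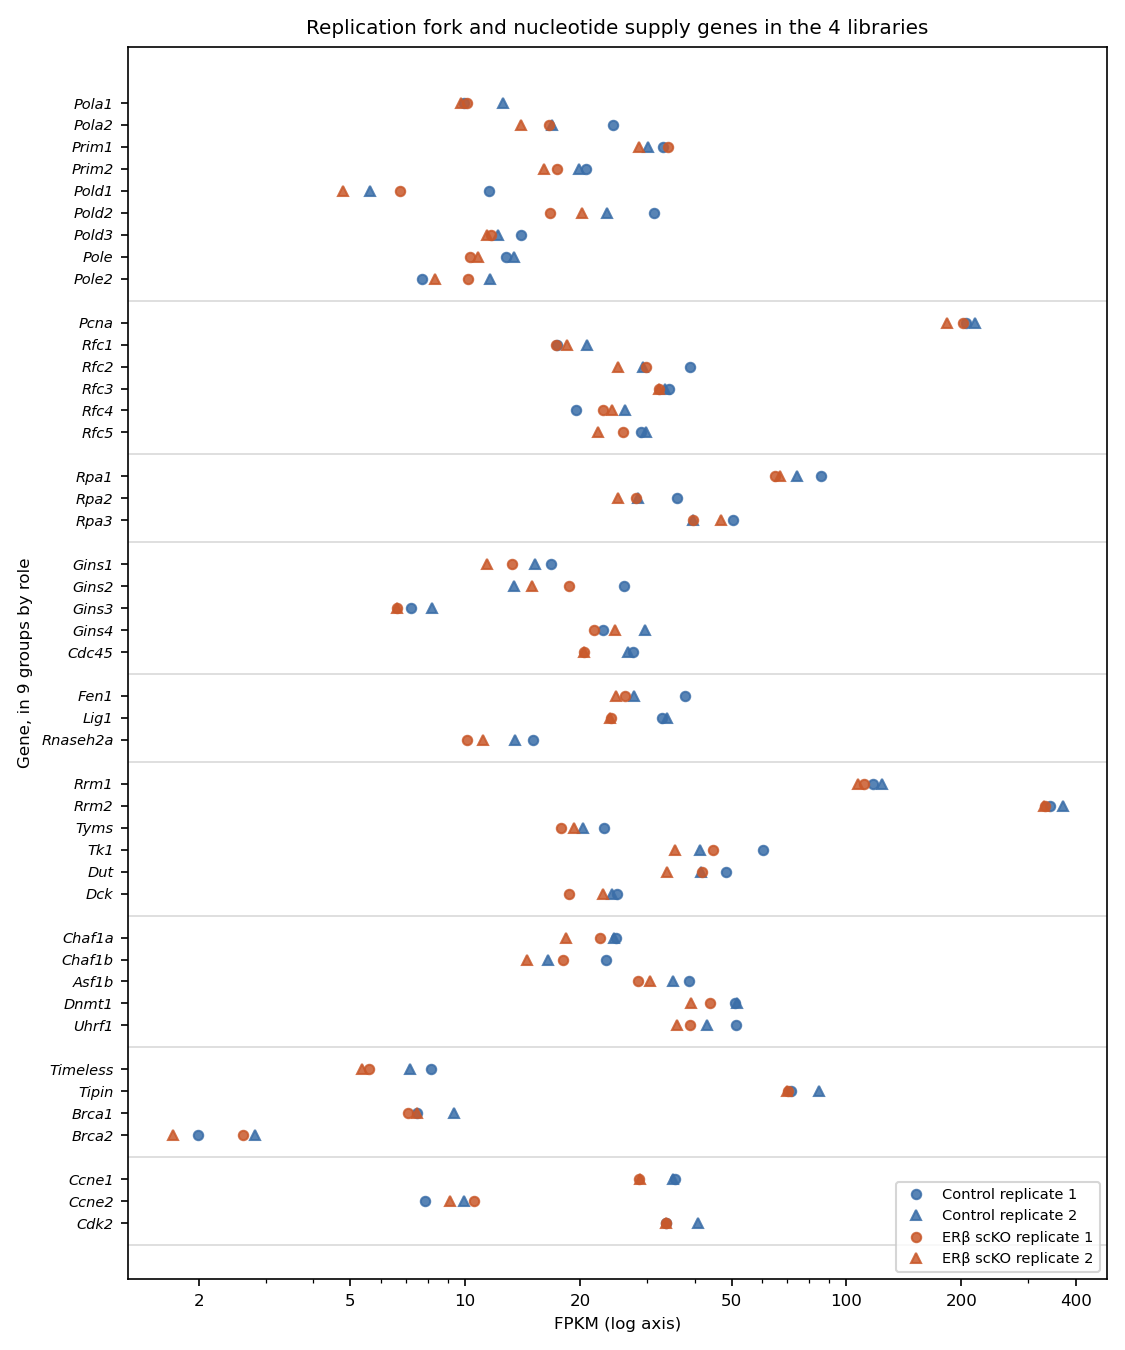
FPKM (horizontal log axis) of each of the 44 genes in the 4 libraries, grouped by role from polymerases at the top to cyclin E at the bottom. Blue points are Control and orange points ERβ scKO, with circles for replicate 1 and triangles for replicate 2. The levels run from 2.28 FPKM (Brca2, mean over libraries) to 343 (Rrm2), and in most rows the orange points lie to the left.

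All 9 polymerase and primase genes had a lower mean in ERβ scKO, with a median log2 difference of −0.26, and 5 of the 9 had libraries that did not overlap. Of all tested genes 50.7% had a lower mean, and 18.3% had both ERβ scKO values below both Control values. These shares belong beside the counts of every role below, and no role was tested as a set. The genes with the lowest differences encode the catalytic and second subunits of DNA polymerase delta, which makes most of the lagging strand. Pold2, the second subunit (chromosome 11, 5861866 to 5878256), had 31.3 and 23.5 FPKM in Control against 16.7 and 20.2 in ERβ scKO. Both ERβ scKO values were below both Control values, with a ratio of means of 0.674 (log2 difference −0.54, SE 0.18, limma adjusted p = 0.837). Pold1, the catalytic subunit (chromosome 7, 44532744 to 44548815), had 11.5 and 5.64 FPKM in Control against 6.75 and 4.77 in ERβ scKO. Its groups overlapped, Control replicate 1 stood far above the other libraries, and without that library the log2 difference was 0.01 where it had been −0.45 (SE 0.34, limma adjusted p = 0.838).

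The accessory subunit Pold3 had 14.0 and 12.2 FPKM in Control against 11.7 and 11.4 in ERβ scKO, a log2 difference of −0.16 with groups that did not overlap. Pole, the catalytic subunit of polymerase epsilon, the main leading-strand enzyme, had 12.8 and 13.4 FPKM in Control against 10.3 and 10.8 in ERβ scKO, with a log2 difference of −0.29 (SE 0.14). The SD was 0.452 FPKM in Control and 0.349 in ERβ scKO, so the gap between the groups was larger than either. Its partner Pole2 had the opposite order in the replicates, with 7.69 and 11.6 FPKM in Control against 10.2 and 8.31 in ERβ scKO, and a log2 difference of −0.04.

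The 4 subunits of polymerase alpha-primase had unlike differences. Pola2, the accessory subunit, had 24.5 and 16.9 FPKM in Control against 16.6 and 14.0 in ERβ scKO (log2 difference −0.40, SE 0.21, limma adjusted p = 0.837). Prim2, the large primase subunit, had 20.8 and 19.9 FPKM in Control against 17.4 and 16.1 in ERβ scKO (log2 difference −0.26, SE 0.13). Both had groups that did not overlap, although Pola2's Control replicate 2 was only just above ERβ scKO replicate 1, and leaving out Control replicate 1 took Pola2 to −0.14. The catalytic subunit Pola1, with 9.94 and 12.6 FPKM in Control against 10.1 and 9.73 in ERβ scKO, and the small primase subunit Prim1, with 33.1 and 30.1 FPKM in Control against 34.0 and 28.6 in ERβ scKO, had overlapping groups and log2 differences of −0.16 and −0.02. Whether the subunits differ from each other was not tested.

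The clamp was close in both groups and its loader was mixed. The list median of clamp and loader was −0.11, with 5 of 6 means lower and 3 of 6 without overlap. Pcna, the clamp itself (chromosome 2, 132249286 to 132253180), had 206 and 217 FPKM in Control against 202 and 184 in ERβ scKO, a ratio of means of 0.911 (log2 difference −0.13, SE 0.10, limma adjusted p = 0.838). The ERβ scKO replicate 1 value was only just below Control replicate 1. Among the replication factor C subunits, which open the clamp and place it on DNA, Rfc5 had 28.9 and 29.8 FPKM in Control against 26.0 and 22.3 in ERβ scKO (log2 difference −0.27, SE 0.13). Rfc2 had 38.9 and 29.3 FPKM in Control against 29.8 and 25.2 in ERβ scKO, with a like log2 difference of −0.29 but overlapping groups, and with −0.09 once Control replicate 1 was left out.

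The large subunit Rfc1 had 17.4 and 20.9 FPKM in Control against 17.3 and 18.5 in ERβ scKO, and its log2 difference of −0.09 was 0.04 without Control replicate 2. Rfc3 had 34.3 and 33.5 FPKM in Control against 32.3 and 32.2 in ERβ scKO, which did not overlap but differed by a ratio of only 0.950. Rfc4 was the member with a mean slightly higher in ERβ scKO, at 19.6 and 26.3 FPKM in Control against 22.9 and 24.2 in ERβ scKO, where both ERβ scKO values lay between the Control values. Its log2 difference of 0.05 (SE 0.17) was −0.15 without Control replicate 1. The 5 loader subunits had means between 17.9 and 34.1 FPKM in the groups, all below the level of the clamp per transcript length.

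Of the 3 subunits of RPA, the trimer that coats single-stranded DNA, Rpa1 and Rpa2 were below Control in both ERβ scKO libraries and Rpa3 was not. Rpa1, the largest subunit, had 85.8 and 74.2 FPKM in Control against 64.8 and 67.1 in ERβ scKO, with a ratio of means of 0.825 (log2 difference −0.27, SE 0.12, limma adjusted p = 0.837). Rpa2 had 35.9 and 28.4 FPKM in Control against 28.1 and 25.2 in ERβ scKO (log2 difference −0.26, SE 0.15), with Control replicate 2 next to ERβ scKO replicate 1, and −0.09 once Control replicate 1 was left out. Rpa3, the smallest subunit, had 50.5 and 39.6 FPKM in Control against 39.7 and 46.8 in ERβ scKO. Its groups overlapped, and the log2 difference of −0.05 became 0.12 when Control replicate 1 was left out, 0.06 when ERβ scKO replicate 1 was, and −0.27 when the trend with GC content was removed.

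Cdc45 and the GINS genes, the partners that turn the MCM ring into an active helicase, had 5 of 5 means lower in ERβ scKO and a median log2 difference of −0.18. Cdc45 (chromosome 16, 18780447 to 18811972) had 27.5 and 26.7 FPKM in Control against 20.5 and 20.5 in ERβ scKO. The libraries of each group were close together and the groups lay apart, with a ratio of means of 0.757 (log2 difference −0.39, SE 0.12, limma unadjusted p = 0.0178, adjusted p = 0.837). Gins1 had 16.7 and 15.2 FPKM in Control against 13.3 and 11.4 in ERβ scKO (log2 difference −0.35, SE 0.15), and Gins3 at 7.20 and 8.18 in Control against 6.63 and 6.64 in ERβ scKO (log2 difference −0.18).

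The groups of Gins4 and Gins2 overlapped. Gins4 had 23.0 and 29.6 FPKM in Control against 21.8 and 24.7 in ERβ scKO, and its log2 difference of −0.16 was 0.01 without Control replicate 2. Gins2 had 26.1 and 13.4 FPKM in Control against 18.7 and 15.0 in ERβ scKO, so that the 2 Control libraries differed more than the groups. Of its exon bases 70.7% also lie in exons of Gse1 on the other strand, and the sources do not say whether the authors counted by strand, so its level is uncertain.

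The 3 lagging-strand genes were lower in ERβ scKO without overlap in 3 of 3 cases, with a median log2 difference of −0.39. Lig1, the ligase that seals Okazaki fragments (chromosome 7, 13258967 to 13311427), had 32.9 and 33.8 FPKM in Control against 24.1 and 24.0 in ERβ scKO. The gap of the means was larger than the SD of either group, the ratio of means was 0.721, and among the members Lig1 had the lowest unadjusted p in limma (log2 difference −0.46, SE 0.11, unadjusted p = 0.00748, adjusted p = 0.837). In the authors' deposited table its p was 0.0309 and its q 0.998. Rnaseh2a, the catalytic subunit of the nuclease that removes ribonucleotides from DNA, had 15.1 and 13.5 FPKM in Control against 10.1 and 11.2 in ERβ scKO (log2 difference −0.39, SE 0.15). Fen1, the flap endonuclease that trims Okazaki fragments, had 37.7 and 27.7 FPKM in Control against 26.3 and 24.9 in ERβ scKO, where Control replicate 1 stood above the other libraries (log2 difference −0.32, SE 0.17, and −0.11 once that library was left out).

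The nucleotide enzymes included the most abundant members and had 6 of 6 means lower in ERβ scKO, with a median log2 difference of −0.23 and 4 of 6 without overlap. Rrm2, the small subunit of ribonucleotide reductase, whose level follows S phase (chromosome 12, 24708254 to 24714146), had 341 and 369 FPKM in Control against 332 and 329 in ERβ scKO. Its groups did not overlap but lay close, with a ratio of 0.932 (log2 difference −0.10, SE 0.09, limma adjusted p = 0.846). The large subunit Rrm1 had 117 and 124 FPKM in Control against 112 and 107 in ERβ scKO, a ratio of 0.905. The small subunit was thus more abundant than the large one per transcript length in all 4 libraries.

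Tyms, the thymidylate synthase, had 23.2 and 20.3 FPKM in Control against 17.8 and 19.3 in ERβ scKO (log2 difference −0.22, SE 0.14). Dck, the deoxycytidine kinase of the salvage pathway, had 25.1 and 24.3 FPKM in Control against 18.7 and 22.9 in ERβ scKO (log2 difference −0.24). Both had groups that did not overlap. Tk1, the S phase thymidine kinase, had 60.5 and 41.4 FPKM in Control against 44.6 and 35.4 in ERβ scKO (log2 difference −0.33, SE 0.21), and Dut, which removes dUTP, had 48.4 and 41.6 FPKM in Control against 41.8 and 33.9 in ERβ scKO (log2 difference −0.25). The groups of these 2 genes overlapped through ERβ scKO replicate 1, which was above Control replicate 2, and leaving out Control replicate 1 took Tk1 to −0.06 and Dut to −0.14.

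Genes of chromatin assembly and maintenance methylation had 5 of 5 means lower in ERβ scKO, within a narrow range of log2 differences from −0.32 to −0.26, and 4 of 5 without overlap. Dnmt1, the maintenance DNA methyltransferase (chromosome 9, 20907206 to 20959888), had 51.1 and 51.7 FPKM in Control against 43.8 and 39.2 in ERβ scKO (log2 difference −0.30, SE 0.11, limma adjusted p = 0.837). Uhrf1, which recruits Dnmt1 to newly copied DNA (chromosome 17, 56303337 to 56323486), had 51.2 and 43.2 FPKM in Control against 38.8 and 35.9 in ERβ scKO (log2 difference −0.32, SE 0.13). These are the genes whose E2F letters are printed first above, and both had Control values above both ERβ scKO values. Pola1 and Cdk2, whose letters are also printed, had overlapping groups. Below Control in both ERβ scKO libraries were 6 of the 11 genes with the letters and 18 of the 25 without them, against 18.3% of all tested genes. Whether these counts differ was not tested.

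Asf1b, a histone chaperone that hands new histones to the assembly factor CAF-1, had 38.7 and 35.2 FPKM in Control against 28.4 and 30.6 in ERβ scKO (log2 difference −0.31, SE 0.12). Of the CAF-1 subunits, Chaf1a had 24.9 and 24.5 FPKM in Control against 22.6 and 18.4 in ERβ scKO, and Chaf1b at 23.4 and 16.5 in Control against 18.0 and 14.5 in ERβ scKO. The libraries of Chaf1a did not overlap and those of Chaf1b did, while their log2 differences were −0.27 and −0.26. Of the exon bases of Chaf1a 33.6% are shared with Ubxn6 on the other strand, so its level is less certain.

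Fork protection and recombination genes had 4 of 4 means lower in ERβ scKO, a median log2 difference of −0.16 and 3 of 4 without overlap. Timeless, which couples the helicase to the polymerases and to the checkpoint (chromosome 10, 128232063 to 128252941), had 8.14 and 7.16 FPKM in Control against 5.60 and 5.36 in ERβ scKO, with a ratio of means of 0.716 (log2 difference −0.41, SE 0.17, limma adjusted p = 0.837). Its binding partner Tipin had 71.3 and 84.6 FPKM in Control against 70.1 and 69.7 in ERβ scKO, a ratio of 0.897. Tipin was the higher of these partners per transcript length in every library. Brca1, a recombination factor that protects stalled forks, had 7.49 and 9.34 FPKM in Control against 7.09 and 7.48 in ERβ scKO (log2 difference −0.18). Brca2, a recombination factor that also protects stalled forks and was the least abundant member, had 1.99 and 2.81 FPKM in Control against 2.61 and 1.71 in ERβ scKO, with overlapping groups. The authors did not test it.

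Cyclin E and its kinase, which drive entry into S phase, were split. Ccne1 (chromosome 7, 38097984 to 38107490) had 35.5 and 35.0 FPKM in Control against 28.6 and 28.7 in ERβ scKO, so that replicates lay close together and the groups apart (ratio 0.812, log2 difference −0.29, SE 0.11, limma unadjusted p = 0.0403, adjusted p = 0.837). The other E cyclin, Ccne2, had 7.86 and 9.91 FPKM in Control against 10.6 and 9.12 in ERβ scKO, with overlapping groups and a log2 difference of 0.14 (SE 0.18) that was −0.01 without Control replicate 1. Cdk2, the kinase, had 33.6 and 40.8 FPKM in Control against 33.7 and 33.7 in ERβ scKO, so that Control replicate 2 alone stood above the other 3 libraries, and without it the log2 difference of −0.13 was 0.00.

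**Figure D3:**
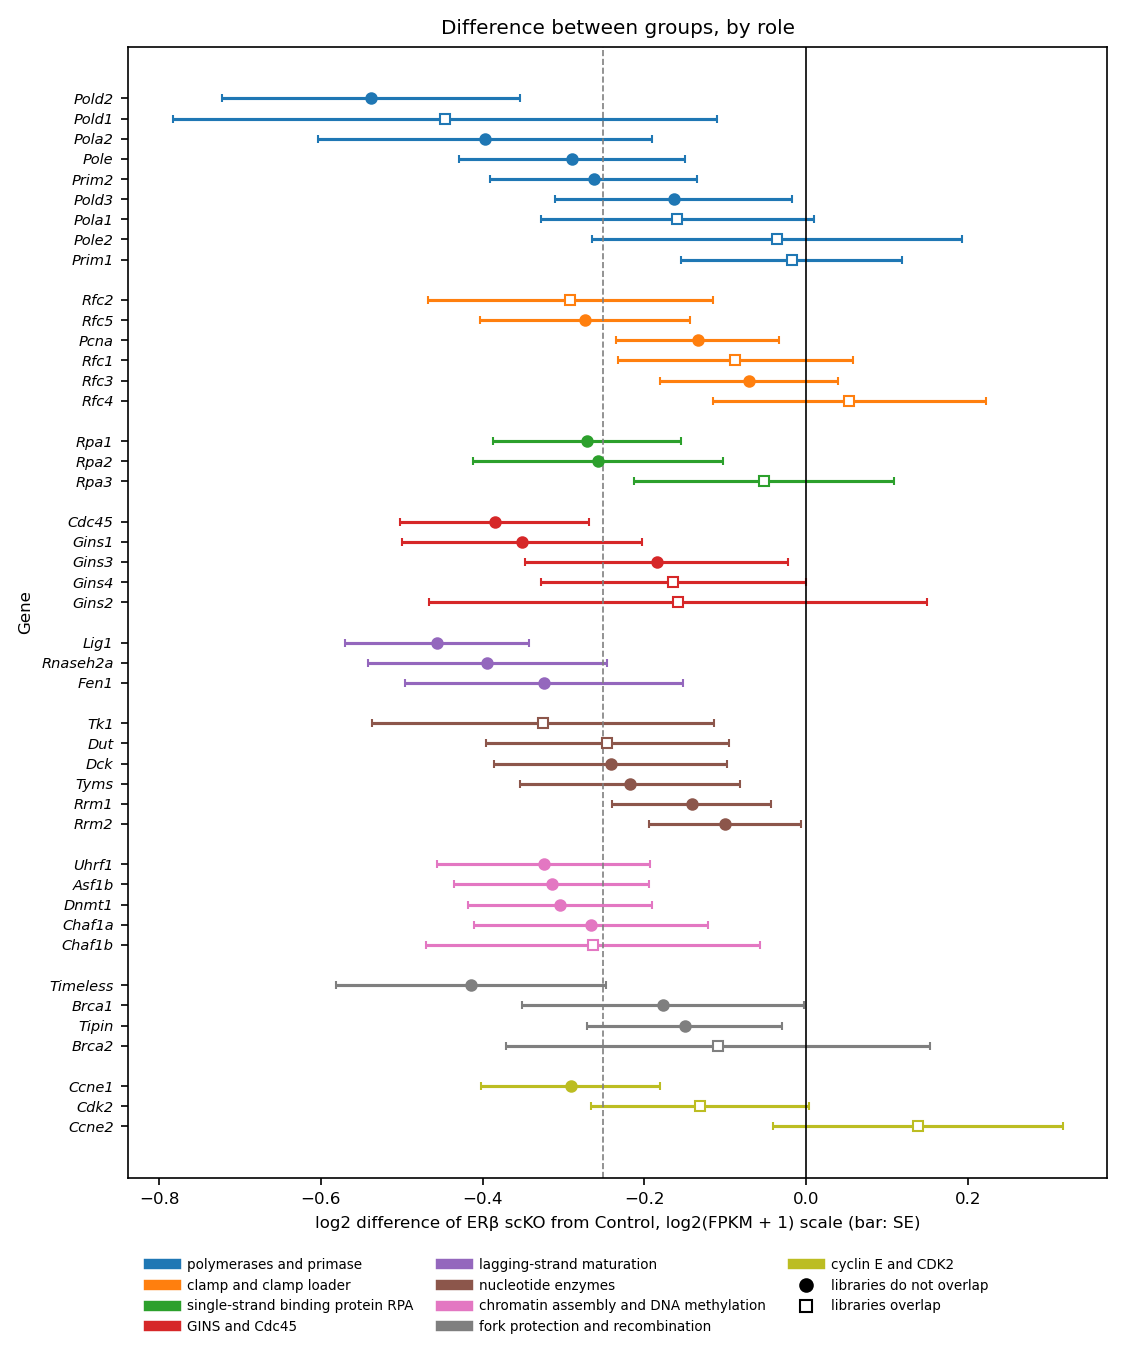
Log2 difference of ERβ scKO from Control (horizontal axis; bars are the SE from limma) for the 44 genes, coloured by role. Filled circles mark the 28 genes whose groups did not overlap, open squares the other 16, and the dashed line is the median of −0.25.

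Each library can also be read on its own. As the deviation of each gene from its mean over the 4 libraries, the median over the 44 genes was 0.16 and 0.11 in Control replicates 1 and 2 and −0.07 and −0.13 in ERβ scKO replicates 1 and 2, so both Control libraries were above both ERβ scKO libraries. The gene's highest value was in Control replicate 1 for 25 members (56.8%, against 34.3% of all tested genes), in Control replicate 2 for 17 (38.6%, against 21.8%), and in an ERβ scKO library for 2, Prim1 and Ccne2. By role, the library medians of polymerases, clamp and loader, GINS and Cdc45, lagging-strand genes, nucleotide enzymes, chromatin assembly and RPA all had both Control libraries above both ERβ scKO libraries. For fork protection this held by a small margin (−0.05 in Control replicate 1 against −0.10 and −0.16), and for cyclin E and CDK2 Control replicate 1 (−0.07) was level with the ERβ scKO libraries. In 22 of the 44 members the gap between the 2 Control libraries was larger than the difference between groups, against 65.3% of all tested genes.

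The size of many differences rested on 1 library. Of the 35 members picked by the naming rule (up to 4 per role with the largest differences, with a few fixed genes), 26 had a log2 difference that shrank by over 1.5 times, or changed sign, when some library was left out. Leaving out Control replicate 1 did so for 14 of the 35, Control replicate 2 for 8, ERβ scKO replicate 1 for 5 and ERβ scKO replicate 2 for 9. Beside those given above, Pold2 had −0.34, Rpa1 −0.17, Tyms −0.13 and Uhrf1 −0.20 when Control replicate 1 was left out. When Control replicate 2 was left out, Gins3 had −0.10, Brca1 −0.035, Tipin −0.029 and Rrm2 −0.045. Dck had −0.10 when ERβ scKO replicate 1 was left out, and Rfc5 had −0.17, Pcna −0.067, Chaf1a −0.12 and Dut −0.099 when ERβ scKO replicate 2 was. The 9 genes that stayed within 1.5 times in either direction, whichever library was left out, were Lig1, Cdc45, Pole, Gins1, Rnaseh2a, Asf1b, Dnmt1, Timeless and Ccne1.

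**Figure D4:**
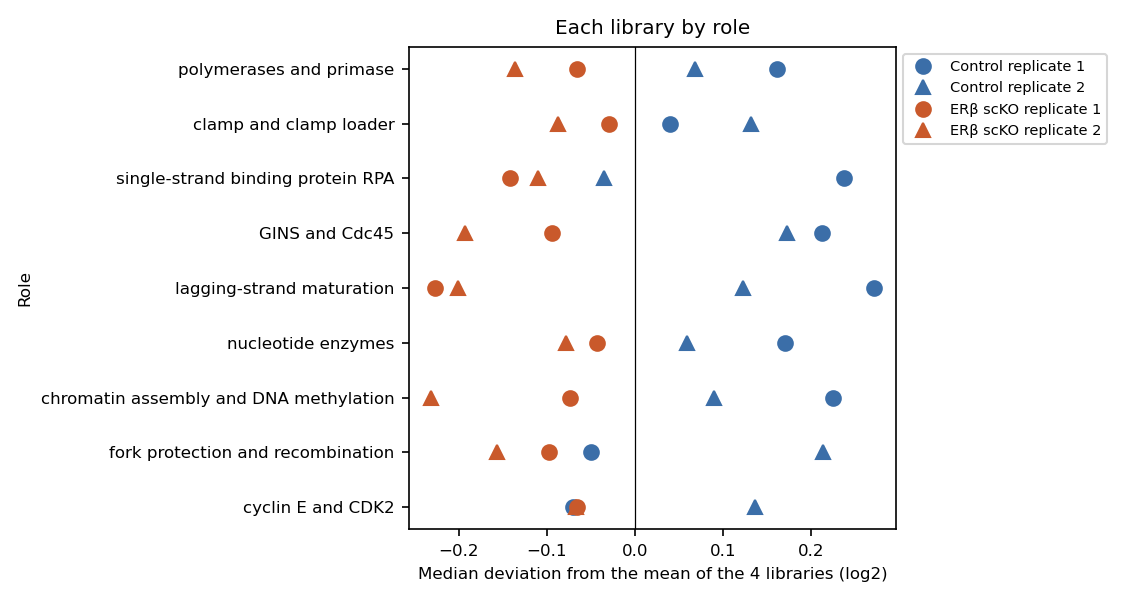
Median deviation of the genes of each role from their mean over the 4 libraries (horizontal axis, log2), with 1 point per library. Blue Control points lie to the right of the orange ERβ scKO points for all roles but cyclin E and CDK2, and Control replicate 1 is the lower Control point for clamp and loader, fork protection and cyclin E.

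The size of the difference followed the GC content of the transcripts. Over the 44 members the log2 difference and the GC content of the longest annotated transcript had a Pearson r of −0.77 (Spearman rho −0.77), against −0.23 over all tested genes with a GC content; the points share the same 4 libraries, and r is given as a description. The 22 members with the higher GC content (48.9% to 61.0%) had a median log2 difference of −0.30 and the 22 with the lower (34.2% to 48.8%) −0.14, while all tested genes in those ranges had medians of −0.06 and 0.06. Pold2 and Pold1 had the highest GC content of the members and the lowest or nearly lowest differences, and Rpa3 and Ccne2, with the lowest GC content, were close to 0 or above it. In all 44 the difference was below the median of all genes in the same 3% bin of GC content. After the trend of each library against GC content was taken out, 44 of 44 members were lower in ERβ scKO, from −0.42 to −0.02, with a median of −0.26, and 30 of 44 did not overlap (20.2% of the genes in that fit), and r was then −0.41. Single genes moved both ways, with Pold1 at −0.28 in place of −0.45, Pold2 at −0.41 in place of −0.54 and Rpa3 at −0.27 in place of −0.05. GC content also went with the difference inside 1 group. Over the members its r with Control replicate 2 minus Control replicate 1 was −0.51. With ERβ scKO replicate 2 minus ERβ scKO replicate 1 it was −0.15. The part of GC content in the difference between groups was not tested further. Mean level and transcript length showed little relation to the difference (r of 0.07 and −0.08).

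**Figure D5:**
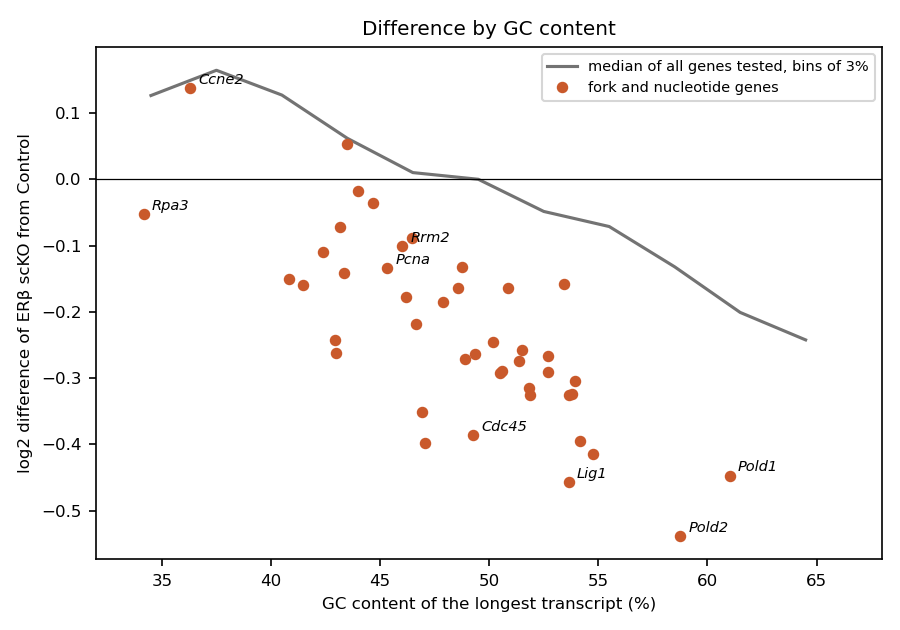
Log2 difference of ERβ scKO from Control (vertical axis) against the GC content of the longest transcript (horizontal axis, %), with 1 point per member and a grey line for the median of all tested genes in bins of 3%. All 44 points lie below the median of their bin, and they descend from left to right.

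Other genes of the pathway were taken from 4 lists of genes that are not members, and neither the lists nor their differences from the members were tested. Of 26 other fork and replisome genes 19 had a lower mean in ERβ scKO (median −0.11), with 9 below in both libraries and 3 above (18.3% of all tested genes in each direction). Chtf18, of the alternative clamp loader, had 6.13 and 3.23 FPKM in Control against 2.65 and 3.13 in ERβ scKO, Dna2, a nuclease of flap removal, had a log2 difference of −0.40, and Rnaseh2c, a partner of Rnaseh2a, −0.63 with overlapping groups. Of 16 other recombination genes 12 had a lower mean (median −0.16), 6 were below in both libraries and 1 above, with Mms22l, Mre11a and Xrcc3 at −0.40, −0.34 and −0.29. Of 9 other chromatin replication genes 6 had a lower mean (median −0.06) and 2 were below in both libraries (22.2%, near the share of all tested genes), and within replicate number 1 their median was 0.06 with 3 of 9 lower. Among those with a lower mean were the histone chaperone Nasp at −0.25, Ssrp1 of the FACT complex at −0.11 and the histone mRNA binding protein Slbp at −0.10, the last with overlapping groups.

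Other nucleotide supply genes had 23 of 24 means lower in ERβ scKO (median −0.15, against 50.7% of all tested genes with a lower mean). In both libraries 13 were below (18.3% of all tested genes). Dctpp1, which degrades modified dCTP, had 103 and 71.1 FPKM in Control against 62.6 and 48.6 in ERβ scKO (log2 difference −0.63, SE 0.21, limma adjusted p = 0.837). Cad, the enzyme that starts pyrimidine synthesis, had 43.5 and 29.8 FPKM in Control against 27.7 and 24.9 in ERβ scKO. Neither gene had groups that overlapped. Limma called 0 genes in each of the 4 lists after adjustment over all genes, and in each list 1 gene was lower at an unadjusted p under 0.05.

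Set beside the genes that act just before and after S phase, the members were not set apart by their median. The 16 MCM helicase and licensing genes had a median log2 difference of −0.29, with 12 means lower (75%), 9 below in both libraries and 1 above. The 20 mitotic genes had −0.23, with 18 means lower (90%), 11 below in both and 1 above. Of the members 95.5% had a lower mean, and of all tested genes 50.7%. Of all tested genes 18.3% were below in both libraries and 18.3% above. Differences between these lists were not tested. The proliferation marker Mki67 had 24.5 and 42.5 FPKM in Control against 32.5 and 31.1 in ERβ scKO, both ERβ scKO values between the Control values. Cdkn1a, an inhibitor of cyclin-dependent kinases that also binds PCNA, was in none of the gene lists used here. It had 316 and 388 FPKM in Control against 425 and 475 in ERβ scKO, in the opposite order to most fork genes. Its groups did not overlap, and 18.3% of all tested genes were likewise above Control in both ERβ scKO libraries. A link between Cdkn1a and the fork genes was not tested.

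Markers of differentiating muscle cells, of other cells and of RNA quality also differed between the libraries. The list of differentiating muscle cells, of which 8 of 10 were measured, summed to 3652 and 5355 FPKM in Control and to 5102 and 6012 in ERβ scKO, so Control replicate 1 was the lowest of the 4, and 7 of the 8 had a higher mean in ERβ scKO. Fibroblast markers, with 7 of 8 measured and Lum listed at 0 in all libraries, summed to 196 and 134 FPKM in Control against 130 and 116 in ERβ scKO. Their sums had the same order as those of the 44 members, which were 1840 and 1795 FPKM in Control against 1614 and 1550 in ERβ scKO. Most of the fibroblast sum was Col3a1 (81.0 and 69.1 FPKM in Control against 63.4 and 61.4 in ERβ scKO) and Col1a2. Col1a2 had 78.3 and 54.1 in Control against 50.3 and 44.1. Of the 7 measured, 3 were below Control in both ERβ scKO libraries (18.3% of all tested genes). Dcn was highest in ERβ scKO replicate 1, at 2.36 FPKM against 1.96 and 0.584 in Control. Pericyte markers summed to 70.6 to 72.9 FPKM in Control and 72.1 to 79.8 in ERβ scKO, with Kcnj8 listed at 0 in 3 libraries. Most of that sum was Rgs5, with 42.3 and 56.7 FPKM in Control against 61.4 and 55.3 in ERβ scKO, and the other 3 of the 4 tested pericyte markers had a lower mean in ERβ scKO. Of these Pdgfrb had 8.28 and 2.84 FPKM in Control against 4.06 and 1.45 in ERβ scKO, with overlapping groups, and its p in the authors' deposited table was 0.0012 and its q 0.492. Endothelial markers summed to 3.81 and 1.87 FPKM in Control against 8.50 and 2.54 in ERβ scKO, mostly Emcn in the highest library. Immune markers summed to 1.39 and 1.15 FPKM in Control against 3.04 and 1.18 in ERβ scKO, with Lyz2 listed at 0 in all libraries and Ptprc in 3. Schwann cell markers summed to 0.427 to 1.97 FPKM, with Sox10 listed at 0 in 3 libraries. Malat1 and Neat1, nuclear RNAs whose share can vary with RNA quality, summed to 143 and 206 FPKM in Control against 270 and 309 in ERβ scKO. Rn45s, the ribosomal RNA precursor that limma called, was in none of the marker lists. It had 213 and 258 FPKM in Control against 63.9 and 68.7 in ERβ scKO, in libraries made from poly(A) RNA. The part of these markers, or of what sets Rn45s apart, in the difference of the fork genes was not tested. Without Control replicate 1, the library with the fewest differentiation and the most fibroblast transcripts, the members' median was −0.22 and 40 of 44 were lower. That fit leaves 1 Control library. Between it and the ERβ scKO libraries the fibroblast sums (134 against 130 and 116 FPKM) still had the same order. So did the sums of Malat1 and Neat1 (206 against 270 and 309). The fit therefore cannot tell the markers apart from the difference of the fork genes.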

How the data were processed

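RNA of primary satellite cells was sequenced from stranded poly(A) libraries, per the labels' protocols, in 2 Control and 2 ERβ scKO libraries; the design text speaks of triplicates. The submitters' processing notes name TopHat, Cufflinks and the mm10 build; versions, annotation and strand setting are not given in the sources used here. The deposited gene table gives FPKM per library, group means, the authors' log2 fold change, a test statistic or score, and the authors' p-value and q-value. A second sheet with 306 of the same genes was not used. Library columns were matched by group and number.

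FPKM are not counts, so limma 3.58.1 (R 4.3.3) was run on log2(FPKM + 1) with a variance trend, over 11201 rows with a mean of at least 1 FPKM, at a Benjamini-Hochberg adjusted p of 0.05. The fit was run on simulated data in which all genes had the same spread and the changed genes differed by more than any member did. That run does not show whether differences of the members' size can be found. Intervals of counting error cover counting only. Transcript length, GC content and exon overlap come from GENCODE M21 (mm10), which matched 92.6% of symbols, and all 44 members; promoters come from RefSeq (GRCm38.p6). Exons of 12 members overlap another coding gene. The members and lists were chosen with earlier results of these data known. The naming rule took up to 4 members per role with the largest absolute differences, Pcna, Rrm2, Tyms, Brca1, Ccne1 and any member higher in ERβ scKO; the values of the other members are given too, so every member is printed. In the other lists it took up to 3 genes with the largest difference. Of these, 1 gene is not reported here.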

Additional observations from a re-analysis of the deposited data

How the results depend on the processing

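The members' median log2 difference of −0.25 stayed between −0.29 and −0.18 when each library was left out in turn, with the value nearest 0 without ERβ scKO replicate 2, and 37 to 41 of the 44 were then lower. The 28 members without overlap became 27 to 30 under other scalings, pseudocounts, filters or GC trend removal, and 22 of the 32 whose exons overlap no other coding gene (median −0.23), a subset chosen after seeing the data. Over all genes the share below in both libraries was 18.3% in the main fit. It moved with these settings too, from 15.5% without a filter to 20.2% with the GC trend removed. Limma called 0 members in every fit run, and the authors' q called 0. Over all genes limma called 4, 2 without a filter, 7 to 11 with a library left out, and 0 by the authors' q. With a library left out the lone library of its group is assumed to vary like the others. With replicate number as a replicate block limma called 6 genes and 0 members, with a lowest member adjusted p of 0.579. Libraries of the same number deviated together with r = 0.21 over tested genes and 0.28 over members. The sample descriptions give the Control and the ERβ scKO library of each number the same identifier. Nothing says whether it marks paired animals, a batch or a day. Between libraries of replicate number 1 the median was −0.26 (37 of 44 lower) and of number 2 −0.25 (42 of 44).

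Of 35 named members 27 kept their direction under every alternative run, and the cause of the 17 reversals of the other 8 was not tested, beyond fewer libraries in most. With GC trend removed Ccne2 was −0.047 and Rfc4 −0.017. Within replicate number 2 Rpa3 was 0.23, Ccne2 −0.11 and Rfc4 −0.11, and within number 1 Brca2 was 0.27 and Cdk2 0.00464. Leaving out 1 library gave ranges of −0.90 to 0.010 for Pold1, −0.21 to 0.035 for Rfc1, −0.22 to 0.12 for Rpa3, −0.34 to 0.012 for Gins4, −0.32 to 0.097 for Brca2, −0.012 to 0.29 for Ccne2, −0.27 to 0.00425 for Cdk2 and −0.15 to 0.26 for Rfc4.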
